A study of Rattus norvegicus with 2 samples.

Results

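The transcription factors that mark projection neurons of the developing cortex were followed in 1 library of cultured rat cortical neurons that received a Scramble control plasmid and 1 library of neurons that received a PIWIL1 RNAi plasmid. The list named 9 genes (Tbr1, Fezf2, Bcl11a, Neurod1, Neurod2, Neurod6, Sox11, Nfib and Mef2c), and 8 of them were found by their RefSeq identifiers among the 9894 genes with a value in either library. Mef2c was listed in neither library. Both cultures came from the somatosensory cortex of E16 Sprague-Dawley embryos, were electroporated after dissociation, and were kept for 48 h in Neurobasal medium with serum and B27. The Scramble plasmid expresses a scrambled siRNA from the pSuper vector, and the RNAi plasmid an siRNA against PIWIL1 from the same vector. Which of the rat siRNAs was used for sequencing is not given, and no step that separated electroporated cells from the others is described. Abundance was read as copies of short sequence tags, each beginning at a CATG site of a transcript.

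Projection neurons are the glutamatergic neurons that send long axons to other cortical areas or out of the cortex, and they are born from radial glia through intermediate progenitors. Their identity is set by transcription factors. Basic helix-loop-helix factors of the NeuroD family act as newborn neurons leave the cell cycle and differentiate. Layer factors such as Tbr1 and Fezf2 direct deep-layer fates, Tbr1 that of corticothalamic neurons and Fezf2 that of subcerebral neurons. Sox11, Nfib, Bcl11a and Mef2c act more broadly in neuronal differentiation and migration.

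The sequences below are the tags on which the values of Fezf2, Neurod2 and Neurod6 rest, namely every tag of these genes with at least 20 copies in the 2 libraries together. Sites are counted from the 3′ end of the transcript, and the capitals mark the last 2 bases, because the ratio between the libraries varied with the bases at the end of a tag over all genes.
Fezf2 site 1: catgagcgcccagaagaacGT
Fezf2 site 2: catgtttaattccaggcctCG
Fezf2 site 4: catgtgcgcaaacttcatgAC
Fezf2 site 5: catgcgccacttgcggcaaAG
Neurod2 site 1: catgtacgaggagctcaacGC
Neurod2 site 2: catgcatccgtacccgtacCC
Neurod2 site 3: catgcacgacctgaacgcgGC
Neurod2 site 4: catgctgacccgcctgttcAG
Neurod6 site 1: catgttataaaaaaatcagAT
Neurod6 site 2: catgttcaggttgcccaccGA
Neurod6 site 3: catgcattactgtgcagtgCC
Neurod6 site 5: catgggactcttgataattCC
Neurod6 site 6: catgttaacactaccgtttGA
For each of the other listed factors the most copied tag is shown, since it carries the largest share of that gene's value.
Tbr1 site 4: catgtttccctttttgagtTT
Bcl11a site 15: catgtacaacttgcaaacaGC
Neurod1 site 1: catgcagcttcatcaatttTT
Sox11 site 1: catggtcagagatgtggcgCA
Nfib site 2: catggagtcactattcctgGT
The 8 factors were read from 57 tags in all, 24 of them with at least 20 copies. Of these 24 tags 14 were lower in the RNAi library (58.3%), against 55.3% of the 16021 tags of all genes at this depth. None of the 57 ended in a run of 8 or more A, a kind of tag that was far more copied in the RNAi library over all genes, and each was listed under 1 gene. In 6 of the 57 tags a second CATG lies inside the tag, so that neighbouring tags of the same gene overlap there. The Fezf2 tag of site 4 is one of them, and its last bases begin the tag of site 3.

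Among the 8 listed factors 1, Fezf2, was called lower in the PIWIL1 RNAi library and 0 were called higher. To be called, a gene had to pass both thresholds of the study, a false discovery rate (FDR) no higher than 0.05 and a log2 ratio of TPM at least 0.58 away from 0. The FDR came from a two-sided Fisher's exact test on tag copies, adjusted over all 9894 genes. As 0 factors were called higher, the unadjusted result is given too: 3 of the 8 had an unadjusted p under 0.05 by the exact test, and 1 of these 3, Neurod2, was higher. By this rule 5.97% of all genes were called lower and 2.96% higher (591 and 293 genes; 459 and 398 when edgeR's TMM factors set the totals). TPM here is the number of tag copies per 1000000 clean tags of the library, not divided by length. Genes differ in how many CATG sites they carry, so differences are read for the same gene between the libraries. Where levels are summed or ranked across genes below, they describe tag copies and not numbers of transcripts. Neurod6 and Neurod2 passed the FDR without reaching the ratio threshold, one lower and the other higher in the RNAi library. Tbr1, Bcl11a, Neurod1, Sox11 and Nfib did not pass, and the 95% interval of each included 0. The median log2 ratio of the 8 factors was 0.02, against -0.085 over the 8899 genes listed in both libraries. With 1 library for each condition there was no replicate check. What is compared is therefore a pair of libraries rather than the conditions, and since PCR copies of 1 molecule are counted again, all intervals cover counting error only.

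**Figure D1:**
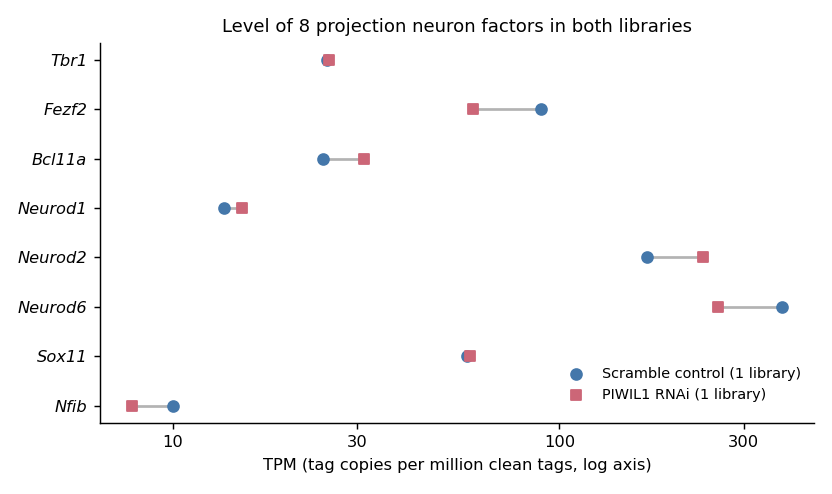
TPM of the 8 listed factors in the Scramble control library (circles) and the PIWIL1 RNAi library (squares), 1 library each, on a log axis. The pairs of Tbr1 and Sox11 lie nearly on each other, Fezf2 and Neurod6 lie lower in the RNAi library, and Neurod2 lies higher.

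The layer factors were read at different depths. Fezf2 (NM_001107251), a zinc finger factor that specifies subcerebral projection neurons, fell from 304 copies with Scramble to 198 with RNAi, or from 89.8 to 59.9 TPM. The RNAi value was 0.668 of the Scramble value, which is -0.583 on the log2 scale (95% exact interval -0.85 to -0.32, Fisher's exact test FDR 0.000309). This value lay just inside the threshold, and Neurod6, at -0.551, was the factor just outside it. Fezf2 is among the genes that the study names as examples of its downregulated group from these same libraries, so its call is not independent evidence. The call depended on the scaling: with TMM factors the log2 ratio was -0.49 (Fisher's exact test FDR 0.00231) and with DESeq2's size factors -0.50 (FDR 0.00169), both short of the ratio threshold.

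The log2 ratios of the Fezf2 tags ranged widely. The 95% exact intervals of the 4 tags that reached 20 copies overlap, those of sites 2 and 4 only narrowly. Such overlap does not show that the tags moved alike, and a difference between them was not tested. The tag of site 4 held 34.9% of the Fezf2 copies in the Scramble library (95% exact interval 29.5 to 40.5) and 47.5% in the RNAi library (40.4 to 54.7). The tag of site 2 went from 77 to 35 copies, a log2 ratio of -1.10 (95% exact interval -1.72 to -0.51). The tag of site 1 went from 86 to 45 copies, a log2 ratio of -0.90 (95% exact interval -1.45 to -0.36). The most copied tag, that of site 4, went from 106 to 94 copies, a log2 ratio of -0.14 with an interval of -0.55 to 0.28. The tag of site 5 had 11 and 10 copies. All 4 Fezf2 tags that reached 20 copies were lower in the RNAi library, 2 of them with an interval below 0. With the tag of site 4 alone the gene was not called (Fisher's exact test FDR 0.749), and with that tag left out its log2 ratio was -0.89. The end GT of the site 1 tag is one of those with the lowest ratios in these data: the 634 tags with this end had a median log2 ratio of -0.67, against -0.075 for the 233 tags ending in CG like that of site 2. With copies corrected for the median of each tag end, Fezf2 had a log2 ratio of -0.48 and was not called. After that correction no member was called, while 3.78% of all genes were called lower and 1.84% higher.

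Tbr1 (NM_001191070), the T-box factor of corticothalamic and subplate neurons, had 85 copies with Scramble and 84 with RNAi, or 25.1 and 25.4 TPM. The log2 ratio was 0.02 with a 95% exact interval of -0.43 to 0.47. At this depth a difference of up to these bounds in either direction was not detectable. Its most copied tag, that of site 4, went from 41 to 31 copies, that of site 3 from 22 to 21, and that of site 5 from 14 to 13. Each of the 3 Tbr1 tags with at least 20 copies had an interval that included 0.

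Bcl11a (NM_001191683), also known as Ctip1, is a zinc finger repressor of cortical neurons. It had 83 copies with Scramble and 103 with RNAi, or 24.5 and 31.2 TPM, with a log2 ratio of 0.35 (95% exact interval -0.08 to 0.78, Fisher's exact test FDR 0.283). Its copies were spread over 13 tags as far as the eighteenth site from the 3′ end, and none came from the site nearest that end. Only the tag of site 15 reached 20 copies, with 37 in the Scramble library and 49 in the RNAi library.

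**Figure D2:**
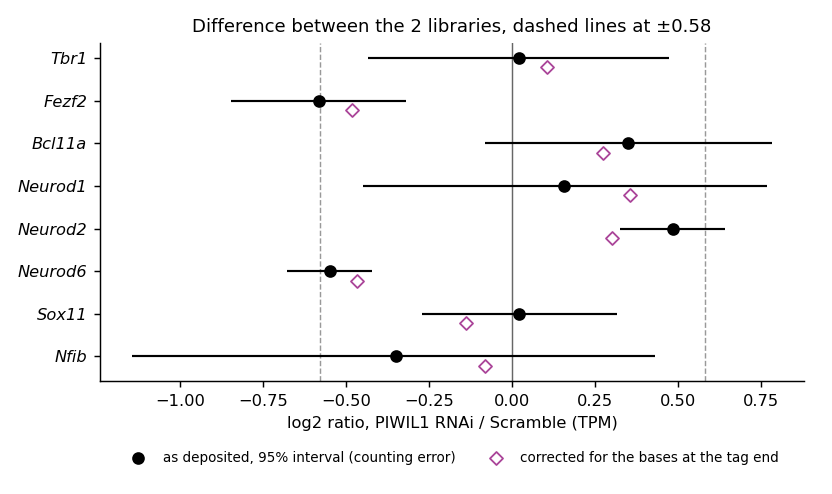
Log2 ratio of TPM, PIWIL1 RNAi over Scramble, for the 8 listed factors. Filled points are the deposited values with 95% exact intervals for counting error, open diamonds the values after correction for the bases at the tag end, and dashed lines the threshold of 0.58. The intervals of Fezf2 and Neurod6 lie below 0, that of Neurod2 lies above 0, and those of the other 5 factors cross it.

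The 3 NeuroD factors differed in direction. Neurod6 (NM_001109237), also called Math2, is a marker of postmitotic glutamatergic neurons. It had 1275 copies with Scramble and 849 with RNAi, or 376 and 257 TPM, the highest copy numbers of the list. The RNAi value was 0.683 of the Scramble value, which is -0.551 on the log2 scale (95% exact interval -0.68 to -0.42, Fisher's exact test FDR 7.61e-15). Neurod2 (NM_019326), which acts in cortical neuron differentiation and synapse formation, had 570 and 777 copies, or 168 and 235 TPM. The RNAi value was 1.40 times the Scramble value, or 0.48 on the log2 scale (95% exact interval 0.33 to 0.64, Fisher's exact test FDR 4.46e-09). Neurod1 (NM_019218), expressed from intermediate progenitors to young neurons, had 46 and 50 copies, or 13.6 and 15.1 TPM, a log2 ratio of 0.16 with an interval of -0.45 to 0.77. Its tag of site 1 went from 22 to 26 copies and that of site 2 from 14 to 11.

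Passing the FDR threshold was common among genes with many copies, while how often genes reached values as small as those of Neurod6 and Neurod2 was not counted. Of the 8 factors, 3 passed the FDR alone, against 16.7% of all genes, and these were the 3 with at least 500 copies in the 2 libraries together. Among all genes with at least 500 copies, a limit set after the values were seen, 52.6% passed the FDR alone and 12.5% were called with the ratio threshold as well. Fisher's exact test allows for no variation beyond the sampling of tags. When edgeR's exact test was given a biological coefficient of variation of 0.1, a value assumed and not measured, the FDR was 0.206 for Neurod6, 0.248 for Neurod2 and 0.259 for Fezf2, so that no factor passed.

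The ratio of Neurod2 to Neurod6 copies within a library does not depend on how the libraries are scaled. It was 0.447 in the Scramble library and 0.915 in the RNAi library, a change of 2.05-fold (95% exact interval 1.78 to 2.36). This pair was chosen after the values were seen, and a change between the libraries followed from that choice. The interval therefore describes counting error only, and no test is given. With copies corrected for the tag end the change was 0.77 on the log2 scale, compared with 1.03 as deposited.

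The tags of Neurod2 moved together and those of Neurod6 did not. All 4 Neurod2 tags were higher in the RNAi library, from 271 to 350 copies at site 1, from 90 to 150 at site 2, from 52 to 70 at site 3 and from 157 to 207 at site 4. Their log2 ratios ran from 0.41 to 0.77, and 3 of the 4 intervals lay above 0. Each of these 4 tags has an end with a median above 0, from 0.04 for CC to 0.15 for GC, and the tag-end correction lowered the log2 ratio of Neurod2 to 0.30.

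In Neurod6 the tag of site 1 went from 531 to 253 copies, a log2 ratio of -1.03 (95% exact interval -1.26 to -0.81). The tag of site 3 went the other way, from 208 to 237 copies, a log2 ratio of 0.22 with an interval of -0.05 to 0.50, which does not overlap that of site 1. The remaining tags lay between them, at -0.66 for site 2, -0.35 for site 5 and -0.60 for site 6. The tag of site 1 held 41.6% of the Neurod6 copies in the Scramble library (95% exact interval 38.9 to 44.4) and 29.8% in the RNAi library (26.7 to 33.0). With this tag alone Neurod6 would be called lower, with a log2 ratio of -1.03, and without it the log2 ratio was -0.28 (Fisher's exact test FDR 0.146). It ends in AT, an end with a median log2 ratio of -0.39 over 1040 tags, and the part of this end in the lower value of the tag was not tested separately. With all tags corrected for their ends the log2 ratio of Neurod6 was -0.47.

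**Figure D3:**
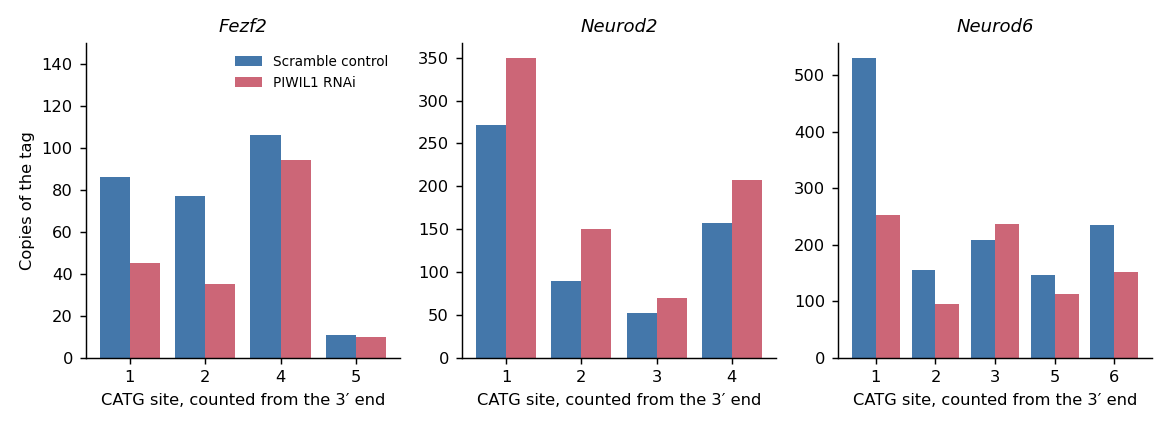
Copies of each tag that reached 20 copies over both libraries, for Fezf2, Neurod2 and Neurod6, by CATG site counted from the 3′ end, on a linear axis that starts at 0 and differs between panels. All Neurod2 tags were higher in the RNAi library, all Fezf2 tags lower, and the Neurod6 tag of site 3 was higher while its 4 other tags were lower.

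Sox11 and Nfib changed by less than their counting error. Sox11 (NM_053349), a SoxC factor that drives pan-neuronal gene expression in newborn neurons, had 196 copies with Scramble and 194 with RNAi, or 57.9 and 58.7 TPM. Its log2 ratio was 0.02 with a 95% exact interval of -0.27 to 0.32, the narrowest of the 5 factors that did not pass. Of its 4 tags with at least 20 copies, 1 was lower (site 3, from 44 to 35 copies) and 3 were higher, from 62 to 76 at site 1, from 34 to 36 at site 2 and from 37 to 41 at site 4, with all 4 intervals including 0.

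Nfib (NM_031566), a nuclear factor I protein needed for the maturation of deep-layer neurons and of glia, had the fewest copies. It had 34 with Scramble and 26 with RNAi, or 10.0 and 7.87 TPM, a log2 ratio of -0.35 with an interval of -1.15 to 0.43. Its most copied tag, that of site 2, went from 16 to 8 copies, and no other Nfib tag reached 20.

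Mef2c encodes a MADS-box factor of maturing cortical neurons, and no identifier or description in either library matched it. This is not a measure of its expression. Its curated RefSeq transcripts carry accessions numbered above NM_001207022, the highest such accession in these tables, so the transcripts with which it could be matched may not have been in the reference used for the tags. Of its paralogs, Mef2a had 25 copies with Scramble and 14 with RNAi, and Mef2d had 22 and 37. Neither of these passed the test, and both are named here after their values were seen.

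A wider list of 44 regulators of the same lineage held paralogs of the factors, layer factors and progenitor factors. Of these, 27 were listed. Of the 17 that were not, 10, among them Bcl11b and Eomes, have only curated transcripts numbered above the same accession. Among the 27 listed, 3 were called lower (Bhlhe22, Nfix and Pou3f2) and 1 higher (Neurog1), against 5.97% and 2.96% of all genes, and the median log2 ratio was -0.26. The lower genes lay among the paralogs and the upper-layer factors. Of the 5 listed deep-layer regulators and the 7 listed progenitor regulators, 0 were called in either direction by Fisher's exact test. The unadjusted p of this exact test was under 0.05 for 1 deep-layer gene (Foxp1) and 2 progenitor genes.

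**Figure D4:**
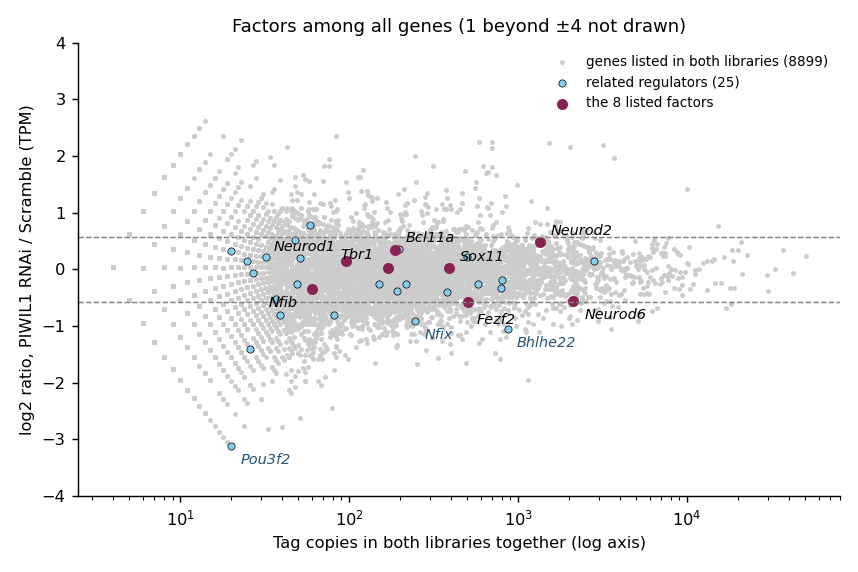
Log2 ratio of TPM against the tag copies in both libraries together (log axis) for the genes listed in both libraries (grey), the related regulators (light blue) and the 8 listed factors (purple). Dashed lines mark the threshold of 0.58, and 1 gene beyond the axis is not drawn. The factors lie within the grey cloud at their depth, and the 3 related regulators called lower (Bhlhe22, Nfix and Pou3f2) are labelled. The uncalled Foxp1, Hes1 and Mef2a also lie below the lower line, and the uncalled Mef2d lies above the upper line.

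Bhlhe22, a helix-loop-helix factor of postmitotic projection neurons that belongs to the same wider family as NeuroD, showed the clearest difference of this list. It fell from 592 copies with Scramble to 279 with RNAi, or from 175 to 84.5 TPM, a log2 ratio of -1.05 (95% exact interval -1.26 to -0.84, Fisher's exact test FDR 5.17e-22). Each of the 4 Bhlhe22 tags that reached 20 copies was lower, and its log2 ratio was -0.83 after the tag-end correction. It passed with an assumed coefficient of variation of 0.1 in edgeR's exact test (FDR 0.00124) and not with 0.2 (FDR 0.713).

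Nfix, the paralog of Nfib with the most copies, fell from 162 to 84 copies, a log2 ratio of -0.91 (95% exact interval -1.31 to -0.52, Fisher's exact test FDR 6.49e-05). Named after their values were seen, Nfia went from 20 to 28 copies, and Nfic was listed in the RNAi library only, with 2 copies. The interval of Nfib includes the log2 ratio of Nfix. The log2 ratio of Nfia was 0.52 with an interval of -0.36 to 1.43, which does not overlap that of Nfix. Without its most copied tag Nfix had a log2 ratio of -0.54 and was not called. With an assumed coefficient of variation of 0.1 in edgeR's exact test Nfix was not called either (FDR 0.0577).

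Pou3f2, also known as Brn2, an upper-layer POU factor, fell from 18 copies to 2, a log2 ratio of -3.12 with a wide 95% exact interval of -6.29 to -1.07 (Fisher's exact test FDR 0.00443). It was not called with its most copied tag alone (Fisher's exact test FDR 0.114) or without that tag (FDR 0.141). In edgeR's exact test Pou3f2 was called lower with an assumed coefficient of variation of 0.1 (FDR 0.0306) and not with 0.2 (FDR 0.371). Its paralog Pou3f3 had 443 and 344 copies, a log2 ratio of -0.33 (Fisher's exact test FDR 0.0247) that did not reach the ratio threshold. Lmo4, a LIM-only cofactor, had a log2 ratio of -0.19 as deposited and was called lower after the tag-end correction, with -0.69.

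Neurog1, the proneural factor upstream of NeuroD, was listed in the RNAi library only, with 9 copies on 2 tags (Fisher's exact test FDR 0.0133), and with 1 copy put back for each tag missing from a library it was not called. Neurod4, also named after its values were seen, had 14 and 13 copies, and Sox12, the SoxC paralog of Sox11, had a log2 ratio of -0.26 with an interval that included 0. Among the deep-layer regulators Tshz3 had the most copies, with a log2 ratio of 0.36 and an interval of -0.06 to 0.78. Of the progenitor factors with the most copies, Sox2 had a log2 ratio of -0.26 and Lhx2 of 0.22, neither reaching the threshold.

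**Figure D5:**
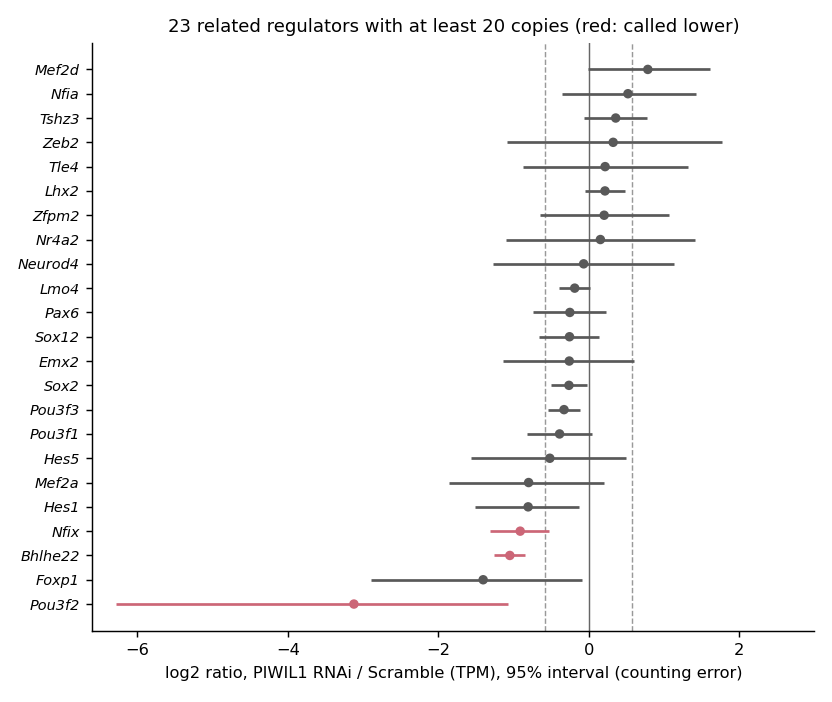
Log2 ratio of TPM, PIWIL1 RNAi over Scramble, with 95% exact intervals for counting error, for 23 related regulators with at least 20 copies in the 2 libraries together that were listed in both. Dashed lines mark the threshold of 0.58, and the 3 genes in red (Bhlhe22, Nfix and Pou3f2) were called lower.

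Genes described as targets of these factors were taken as a list of 12, of which 11 were listed. Among these 1 was called lower and 1 higher, against 5.97% and 2.96% of all genes. Sema3c, a secreted semaphorin described as repressed by Bcl11a, fell from 554 to 231 copies, a log2 ratio of -1.23 (95% exact interval -1.45 to -1.002, Fisher's exact test FDR 1.53e-26). Slc17a7, the vesicular glutamate transporter VGLUT1 that Fezf2 is described as promoting, rose from 108 to 163 copies, a log2 ratio of 0.63 (95% exact interval 0.27 to 0.99, Fisher's exact test FDR 0.00280). Both kept their call after the tag-end correction, at -0.78 for Sema3c and 0.98 for Slc17a7. Ephb1, on the same list and named after its values were seen, fell from 230 to 159 copies. Its log2 ratio was -0.50 (95% exact interval -0.80 to -0.20, Fisher's exact test FDR 0.0134), short of the ratio threshold. After the tag-end correction Ephb1 did not pass the FDR (Fisher's exact test FDR 0.0672). Tubb3 and Dcx, described as targets of Sox11, had log2 ratios of -0.49 and 0.07, and Ezh2, described as repressed by Nfib, of -0.24. Tubb3 passed the FDR without reaching the ratio threshold (95% exact interval -0.60 to -0.38, Fisher's exact test FDR 2.30e-14). The intervals of Dcx and Ezh2 included 0. The tables hold no measure of binding, so a link from factor to target was not tested.

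Markers of the labelled cell type were present and other cells were represented as well. Of 9 neuron markers 9 were listed, with a summed level of 4184 TPM in the Scramble library and 3740 in the RNAi library. Elavl3 and Snap25 were called lower as deposited, against 5.97% of all genes, and Snap25 was not called after the tag-end correction. Stmn2, the neuron marker with the most copies, had a log2 ratio of -0.36 and Gap43 of 0.44, the latter -0.19 after that correction. Of 12 interneuron markers 11 were listed (148 and 132 TPM), and Lhx6 was called lower as deposited and not after the tag-end correction, while Sst (110 and 76 copies) was not called as deposited and was called lower after it, with -0.75. Slc32a1, with 104 and 99 copies, and Dlx1, with 67 and 90, were called in neither. Of 8 radial glia and cycling markers 6 were listed (1009 and 1302 TPM, mostly Vim, whose log2 ratio was 0.51). Of 7 fibroblast and mural markers 6 were listed (549 and 524 TPM, mostly Col1a1 and Col3a1), of 6 astrocyte markers 4 (88.6 and 80.5 TPM, mostly Slc1a3), of 7 microglia markers 5 (27.8 and 30.9 TPM), of 7 oligodendrocyte lineage markers 7 (8.57 and 6.96 TPM) and of 5 endothelial markers 1, with 2 copies in the RNAi library. Of the 3 glutamatergic transporters 2 were listed (46.7 and 58.4 TPM), Slc17a6 with 50 and 30 copies. In these 6 non-neuronal lists, radial glia included, 0 genes were called as deposited, against 5.97% of all genes called lower and 2.96% higher. After the tag-end correction 1 was called (Aif1, higher), against 3.78% lower and 1.84% higher over all genes. Vim (Fisher's exact test FDR 1.63e-47) and Nes (FDR 0.0336, log2 ratio -0.50) passed the FDR as deposited without reaching the ratio threshold. In such mixed cultures fewer cells of a type and less RNA per cell cannot be told apart, and the part of these markers in the values of the factors was not tested. The targeted gene had no value under the symbol Piwil1, so the knockdown was not checked in these libraries.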

How the data were processed

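Digital gene expression libraries from E16 rat cortical neurons, 1 per group, were compared at 48 h. For each RefSeq transcript the authors deposited a tag count, the sum of the copies of its 21-base tags, and the TPM, which is deposited per 1000000 clean tags and not per length. The program that matched tags to transcripts is not given in the sources used here; the submitters' processing notes name the build rn4, and no positions are printed. The tables held 1947600 copies on 9496 genes (Scramble) and 1865913 on 9297 genes (RNAi), 57.5% and 56.5% of 3386865 and 3303360 clean tags recovered from TPM, and 3 copies equal 0.886 and 0.908 TPM. No listed tag had fewer than 2 copies. Symbols came from a RefSeq table of another assembly by accession (9337 of 9894 identifiers, 94.4%).

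Fisher's exact test (two-sided, totals the copies on genes, Benjamini-Hochberg over all genes) and exact Clopper-Pearson intervals at 95% were computed on the counts with Python 3.11.15, SciPy 1.17.1, NumPy 2.4.6, pandas 2.3.3 and Matplotlib 3.10.9; alternatives used edgeR 4.0.16 and DESeq2 1.42.0 under R 4.3.3. The tag-end correction took out the median log2 ratio of each class, less the median over all classes together. A shift shared by all tags therefore stayed in. A class was the last 2 bases, or the length of a final run of 3 or more A, with 13 or more as 1 class. Medians were taken over tags with at least 20 copies, with 0.5 copies added. The genes were split at random, and each part was corrected with the medians of the other. The tests were tried on simulated data with counting error only. Variation between cultures and the effect of the tag end were not simulated. The members, the other gene lists and the alternatives were chosen with earlier results of these data known. Named were all members, and of the other lists the called genes and, of those whose copies in the 2 libraries sum to 100 or more, up to 3 with the most; marker lists are mostly given by sums. The values of 2 related regulators are not reported here.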

Additional observations from a re-analysis of the deposited data

How the results depend on the processing

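No paired analysis was possible because each group is 1 library. Over 18 alternatives, none of which changed the sign of Fezf2, Neurod2 or Neurod6, the log2 ratio ran from -0.89 to -0.14 for Fezf2, from 0.30 to 0.58 for Neurod2 and from -1.03 to -0.28 for Neurod6. Alternatives that changed only the test, the thresholds or the genes kept reused the deposited ratio, as did that with all clean tags as totals. No sign could change in those. Ratios were recomputed with the TMM and DESeq2 factors. The extremes of Fezf2 and Neurod6 came from taking the most copied tag alone or leaving it out. Fezf2 lost its call in 9 of the 18. No Tbr1, Bcl11a, Neurod1, Sox11 or Nfib value was called in any of them, while the sign of the log2 ratio changed in 1 for Tbr1, 2 for Sox11 and 1 for Nfib.

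The number of factors called lower went from 1 to 0 with TMM factors, DESeq2 size factors, 1 copy put back for every tag that one library lacks, the tag-end correction, an assumed coefficient of variation of 0.1, 0.2 or 0.4 in edgeR's exact test, or a log2 threshold of 1; by the Fisher's exact test as reported, 3 factors had an unadjusted p under 0.05. With the most copied tag alone the 1 factor called lower was Neurod6, not Fezf2. Without a ratio threshold 2 factors were lower and 1 was higher. Over all genes, 374 were called lower and 182 higher with the tag-end correction, 250 and 128 without the most copied tag, 257 and 163 at an FDR of 0.001, 262 and 146 at a log2 threshold of 1, and 943 and 706 without one; with the assumed coefficients of variation they were 170 and 114, 2 and 15, and 0 and 0. For the related regulators, 0 were called lower with a coefficient of 0.2 or 0.4, and 0 higher with any of the 3 coefficients, when 10 copies were required in either library or in each, with 1 copy put back, with the most copied tag alone or left out, or at an FDR of 0.001; without a ratio threshold 2 were higher. The cause of these differences was not tested. Depth limits Nfib and Neurod1 most, with 60 and 96 copies in both libraries together.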
